A study of Mus musculus with 9 samples.

Results

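The 35 genes described here encode the machinery of major histocompatibility complex (MHC) class I antigen presentation and the genes that interferons switch on. They were chosen by symbol for their known roles, with earlier results of these data in view but with no measured value in the rule, and all 35 were found among the 40773 rows of the count table. The members fall into 7 roles. Class I presentation holds 12 of them (5 heavy chains, 4 genes for the light chain and peptide loading, and 3 immunoproteasome subunits), and the other 23 comprise 5 regulators and signal transducers, 13 antiviral effectors, 2 RNA sensors and 3 interferon receptor chains.

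The study asked how ion-charged nanostructures (ICNs), supramolecular fibres carrying a dense cloud of metal ions, change gene expression in mouse embryonic cortical neurons. Messenger RNA was sequenced from 3 cultures with a K+ ICN, 3 with a Na+ ICN and 3 with a peptide amphiphile (PA) without charge, a peptide with a lipid tail that assembles into fibres and served as the control. All 9 cultures had a night to settle, lost their medium, received 80 µl of material (5 mM stock, 200 µM on the cells) and then fresh medium, had 50% of it changed at 48 h, and were harvested at 72 h. There were no cultures without any peptide amphiphile among those used here. The series text states 3 biological replicates per condition, but no label ties a replicate to an animal or a preparation. The spread behind each p-value is that among the cultures, and how much of it is technical is not known.

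MHC class I molecules carry peptides from inside the cell to its surface, where T cells read them. A heavy chain pairs with the light chain B2m, the immunoproteasome cuts peptides, and the transporter made of Tap1 and Tap2 moves them into the endoplasmic reticulum. Interferons raise these genes through STAT and IRF transcription factors that bind short promoter elements, and raise antiviral effectors through the same factors. Neurons are known for low class I expression, and in the developing mouse brain class I molecules have also been linked to synapse refinement.

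The promoter stretches of 7 members are shown first because they carry the elements that this regulation is known to use. They are from RefSeq on GRCm38.p6, written 5′ to 3′ on the gene's own strand, and all lie upstream of a RefSeq transcription start (the H2-K1 stretch runs past a further RefSeq start of that gene, so that its last CCAAT box lies 9 bases after it). For the 3 class I heavy chains, capitals mark the kappaB core (GGGNNTTCC), the IRF core (AANNGAAA) and the CCAAT box (CCAAT), each in either orientation. The H2-K1 stretch is chr17:34000334-34000464 (minus strand), H2-D1 chr17:35262923-35262951 (plus strand, from the kappaB to the IRF core) and H2-Q4 chr17:35379438-35379572 (plus strand). In GENCODE the H2-D1 gene starts further upstream, at 35262730, so the H2-D1 stretch lies inside that gene and only this part is printed.
H2-K1: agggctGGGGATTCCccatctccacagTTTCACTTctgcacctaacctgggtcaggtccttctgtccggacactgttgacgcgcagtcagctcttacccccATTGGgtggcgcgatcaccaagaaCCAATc
H2-D1: GGGGATTCCccatctcctcagTTTCACTT
H2-Q4: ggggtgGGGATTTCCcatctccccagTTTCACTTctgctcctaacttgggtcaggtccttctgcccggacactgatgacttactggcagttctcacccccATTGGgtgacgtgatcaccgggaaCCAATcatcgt
The stretches from kappaB core to CCAAT box were aligned with 6 bases on either side, except that H2-K1 ended at the base before its start. The H2-D1 stretch aligned was longer than the one printed. H2-K1 was identical to H2-D1 at 84.6% of 136 columns and to H2-Q4 at 82.4%, and H2-D1 to H2-Q4 at 84.6%. Missing bases count as columns that differ.

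The other 4 stretches show a light chain, a regulator and a pair of antiviral genes. Capitals mark the ISRE core (GAAANNGAA), the IRF core, the STAT-binding GAS motif (TTCNNNGAA) or the CCAAT box. B2m is chr2:122147542-122147644 (plus), Irf1 chr11:53769918-53769961 (plus), Isg15 chr4:156200869-156200902 (minus) and Ifit1 chr19:34640774-34640819 (plus).
B2m: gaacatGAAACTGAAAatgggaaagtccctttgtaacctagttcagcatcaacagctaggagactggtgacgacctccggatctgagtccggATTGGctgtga
Irf1: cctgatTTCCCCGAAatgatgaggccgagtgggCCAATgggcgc
Isg15: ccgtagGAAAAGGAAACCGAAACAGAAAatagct
Ifit1: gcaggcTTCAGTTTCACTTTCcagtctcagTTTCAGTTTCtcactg

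Over windows of 250 bases before to 50 bases after a start, 30 of the 35 members were matched in the RefSeq table by symbol. Both strands were searched, and a site can hold both the ISRE and the IRF core, which may overlap. The IRF core was found for 17 of the 30 members and in 23.9% of all 32851 windows, and the ISRE core for 12 of 30 and in 8.56% of all windows. GAS was found for 8 members (8.3% of all windows), the CCAAT box for 15 (37.4% of all windows) and the kappaB core for 4, H2-K1, H2-D1, H2-Q4 and Bst2 (5.82% of all windows). These member counts are of genes, and a gene can have more than 1 window. Counted by window, the 34 member windows held the IRF core in 18, the ISRE core in 12 and GAS in 8. They held the CCAAT box in 17 and the kappaB core in 5. By role, the ISRE core was found for 7 of 10 matched antiviral effectors, 1 of 5 heavy chains, 0 of 3 immunoproteasome genes and 0 of 3 receptor chains, while the IRF core and the CCAAT box were each found for 5 of 5 heavy chains. A match is a description of letters in the window and not a measured binding site. Rtp4, Ifi27, Tap2, Usp18 and Nlrc5 were not matched.

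Levels are given in CPM, the usual per-library scale for counts, here on library totals scaled by TMM, and differences as fold changes from edgeR's quasi-likelihood test over all 9 libraries. A gene was called when its adjusted p, by Benjamini-Hochberg over all 15183 genes tested, was below 0.05. Library totals ranged from 17924988 to 22906950 counts, so 3 counts, the limit that a count of 0 allows, correspond to 0.131 to 0.167 CPM. No pair of libraries of a group matched within sampling error (chi-square per degree of freedom 3.23 to 4.18). Of the 35 members, 25 had enough counts to be tested and 10 did not. Nlrc5 and H2-M3 reached the count minimum only in ICN libraries, so their place in the test rests on higher ICN counts. Both ICN groups were set against the same 3 PA cultures, and their results are therefore not independent of each other. Where all 3 libraries of a group lay above or below those of another, this describes the values and is not a test. How many of all tested genes separate in this way was not counted. Of the 15183 tested genes, 3569 had an unadjusted edgeR p under 0.05 with Na+ ICN and 4236 with K+ ICN.

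With K+ ICN, the class I heavy chains H2-K1, H2-D1 and H2-Q4, the light chain B2m, the peptide transporter Tap1, the regulators Nlrc5 and Irf1 and the membrane antiviral proteins Ifitm2 and Ifitm3 rose relative to PA, and the interferon receptor chain Ifnar1 fell. Members called thus numbered 9 higher and 1 lower of 25 tested, where 8.15% of all tested genes were higher, 7.68% were lower and 15.8% were called in either direction. The 9 include Nlrc5, which was tested only through its ICN counts. With Na+ ICN, H2-K1, H2-D1, H2-Q4, Tap1, Ifit2, Ifitm2 and Ifitm3 rose and Ifnar1 fell, which makes 7 higher and 1 lower of 25, where 5.63% of all tested genes were higher, 5.22% lower and 10.9% called in either direction. The median log2 fold change of the tested members was 0.59 with K+ ICN and 0.40 with Na+ ICN, and that of all tested genes was 0.0031 and 0.0036 in the same comparisons. The member medians include Nlrc5 and H2-M3, which reached the count minimum only in ICN libraries. Of the 12 class I presentation members 10 were tested, of which 5 were higher with K+ ICN and 4 with Na+ ICN. Of the other 23 members 15 were tested, of which 4 were higher and 1 lower with K+ ICN and 3 were higher and 1 lower with Na+ ICN, and whether these 2 sets differ was not tested. The interferon-stimulated genes Isg15, Ifit1, Ifit3, Irf7, Usp18, Oasl2, Rsad2 and Xaf1 stayed at 0 to 19 counts in every library and could not be tested.

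**Figure D1:**
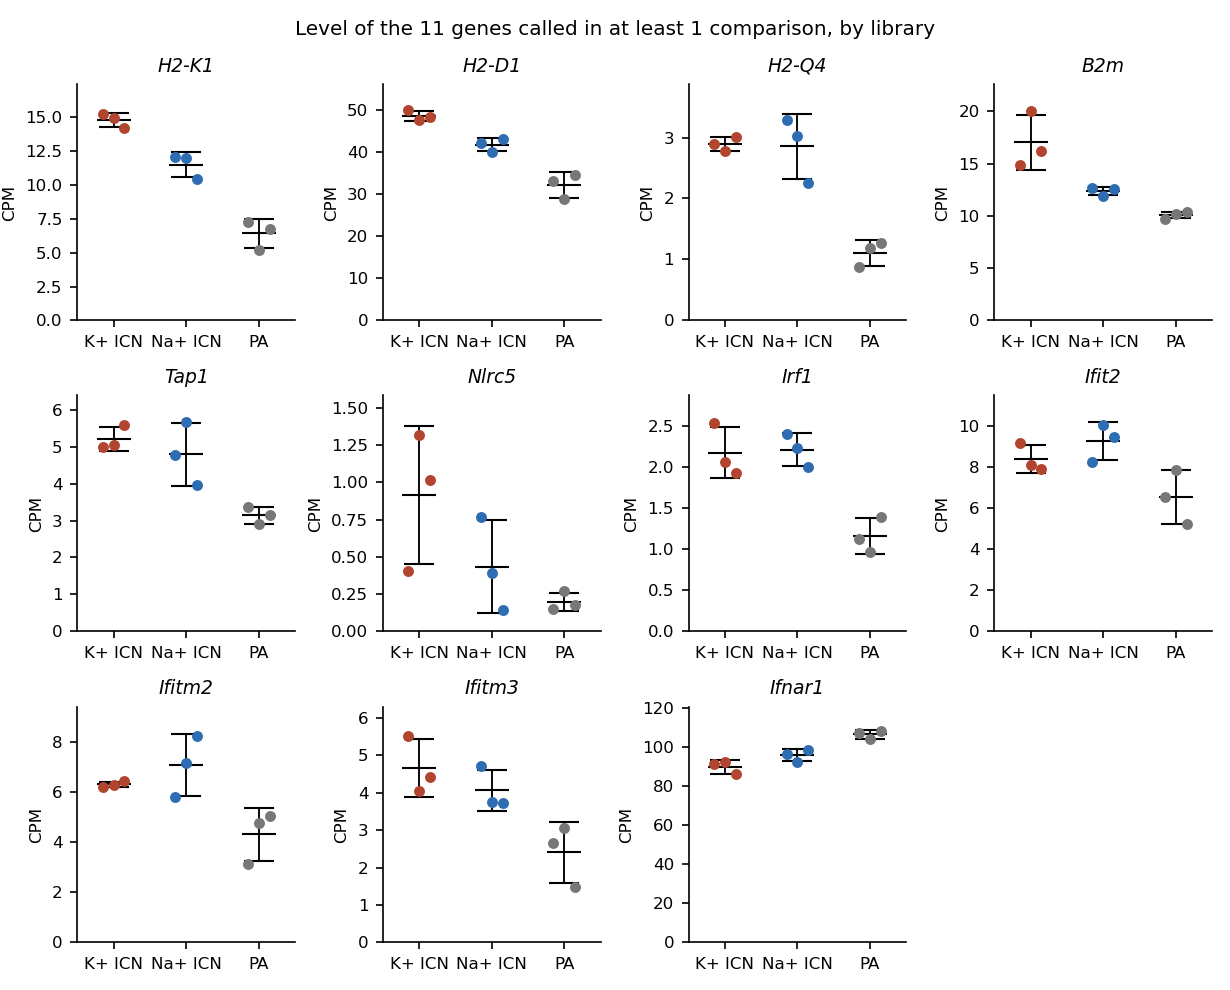
CPM in each library (points) for the 11 members called in at least 1 comparison, with the mean and SD of 3 libraries, for K+ ICN, Na+ ICN and PA from left to right in each panel. For H2-K1, H2-D1 and B2m every K+ library lay above every Na+ library and every Na+ library above every PA library, and Ifnar1 had the opposite order.

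H2-K1, a classical heavy chain that presents peptides to cytotoxic T cells (chromosome 17, 33996017 to 34000347, GENCODE vM21 on GRCm38), had 15.2, 14.96 and 14.2 CPM with K+ ICN, 12.04, 12 and 10.5 CPM with Na+ ICN, and 7.26, 5.22 and 6.78 CPM with PA. The 3 groups did not overlap. H2-K1 rose 2.30-fold with K+ ICN against PA (log2 1.20, SE 0.132, edgeR adjusted p = 1.49e-09) and 1.78-fold with Na+ ICN against PA (log2 0.84, SE 0.135, edgeR adjusted p = 1.61e-05). Against Na+ ICN, the K+ level was 1.29-fold (95% confidence interval 1.08 to 1.53), which did not pass (edgeR adjusted p = 0.0726).

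H2-D1, the other classical heavy chain (chromosome 17, 35262730 to 35267499), was the most abundant class I gene. It had 49.8, 47.4 and 48.1 CPM with K+ ICN, 42.1, 39.9 and 43.0 CPM with Na+ ICN, and 33.1, 28.7 and 34.5 CPM with PA, again without overlap between groups. The rise was smaller than for H2-K1, at 1.51-fold with K+ ICN (log2 0.59, SE 0.071, edgeR adjusted p = 1.1e-08) and 1.30-fold with Na+ ICN (log2 0.38, SE 0.072, edgeR adjusted p = 0.000224). Between the ions the ratio of K+ to Na+ was 1.16 (interval 1.05 to 1.28, edgeR adjusted p = 0.0504), just outside the threshold, and 9 of 17 alternative analyses called it, with adjusted p of 0.0341 to 0.0496.

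H2-Q4, a class Ib heavy chain of the Q region (chromosome 17, 35379617 to 35385290), was present at much lower counts. Its levels were 2.90, 2.78 and 3.00 CPM with K+ ICN, 3.28, 3.03 and 2.25 CPM with Na+ ICN, and 0.869, 1.18 and 1.27 CPM with PA. All ICN libraries lay above all PA libraries, while the ICN groups overlapped each other. H2-Q4 rose 2.60-fold with K+ ICN (log2 1.38, SE 0.291, edgeR adjusted p = 0.00046) and 2.55-fold with Na+ ICN (log2 1.35, SE 0.294, edgeR adjusted p = 0.00121). The K+ to Na+ ratio of 1.02 had an interval of 0.701 to 1.47.

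The remaining 2 heavy chains were near the detection limit. H2-M3, which presents formylated peptides, had 0.362 to 0.517 CPM with K+ ICN, 0.112 to 0.766 CPM with Na+ ICN and 0.102 to 0.323 CPM with PA, and did not pass with either ICN (log2 1.18, SE 0.724 with K+, log2 1.13, SE 0.737 with Na+). H2-T23, the mouse Qa-1 chain read by NK cell receptors, had 0, 12 and 3 counts with K+ ICN, 7, 0 and 1 with Na+ ICN and 1, 2 and 1 with PA, and was not tested.

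Class I genes are close copies, and a read from a shared stretch can be counted for either. Of the 50-base stretches in GENCODE transcripts, 9.63% for H2-K1, 12.8% for H2-D1, 13.6% for H2-T23 and 21.8% for H2-Q4 also occur in another gene, and 19.1% of the H2-Q4 exon bases overlap the antisense gene Gm11131. The 28 class I heavy chain rows of the table were therefore also added up, which does not depend on how reads were split among them. The sum was 83.4, 80.2 and 79.3 CPM with K+ ICN, 70.7, 66.0 and 70.6 CPM with Na+ ICN, and 55.1, 48.8 and 53.9 CPM with PA. The 3 groups stood apart, and each difference was called. The sum rose 1.54-fold with K+ ICN against PA (interval 1.42 to 1.66, edgeR adjusted p = 4e-12), 1.31-fold with Na+ ICN against PA (interval 1.21 to 1.42, edgeR adjusted p = 1.44e-06) and 1.17-fold with K+ ICN against Na+ ICN (interval 1.09 to 1.26, edgeR adjusted p = 0.00394).

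The makeup of the class I counts restates the same counts as shares, and unlike the sum it depends on how reads were split among the rows. H2-D1 held 59.1% to 60.7% of them with K+ ICN, 59.6% to 61.0% with Na+ ICN and 58.8% to 64.0% with PA. H2-K1 held 17.9% to 18.7% with K+ ICN, 14.8% to 18.2% with Na+ ICN and 10.7% to 13.2% with PA, and H2-Q4 held 3.46% to 3.79% with K+ ICN, 3.19% to 4.64% with Na+ ICN and 1.58% to 2.43% with PA. The other 25 rows held 17.6% to 18.8% with K+ ICN, 16.7% to 21.0% with Na+ ICN and 21.1% to 28.1% with PA. The shares of H2-K1 and H2-Q4 were thus higher in every ICN library than in any PA library, and the share of H2-D1 overlapped between groups. These shares were not tested.

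**Figure D2:**
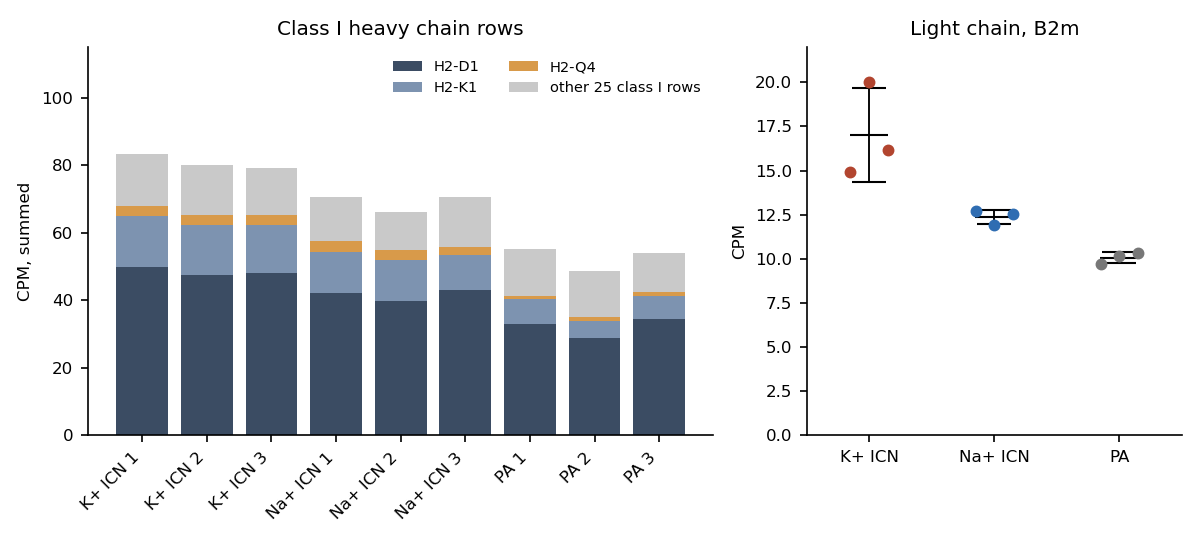
Left, CPM of the 28 class I heavy chain rows stacked for each of the 9 libraries. Right, CPM of the light chain gene B2m per library with the mean and SD of 3. The class I sum averaged 81.0 CPM with K+ ICN, 69.1 CPM with Na+ ICN and 52.6 CPM with PA, and H2-D1 was the main component in every library.

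B2m, the light chain that pairs with class I heavy chains (chromosome 2, 122147686 to 122153083), had 14.9, 19.99 and 16.2 CPM with K+ ICN, 12.7, 11.9 and 12.5 CPM with Na+ ICN, and 9.71, 10.2 and 10.3 CPM with PA. No stretch of its transcripts occurs in another gene. B2m rose 1.69-fold with K+ ICN against PA (log2 0.76, SE 0.117, edgeR adjusted p = 3.2e-06). With Na+ ICN it was 1.23-fold the PA level (interval 1.04 to 1.46), which did not pass (edgeR adjusted p = 0.11). Every Na+ library lay above every PA library, which is not a test. B2m was also the 1 member of 25 called in the direct comparison of the ions, in which 6.58% of all tested genes were called, and was 1.37-fold higher with K+ ICN than with Na+ ICN (log2 0.46, SE 0.116, edgeR adjusted p = 0.00707). Without K+ ICN replicate 2, the highest library, that difference did not pass (log2 0.33, edgeR adjusted p = 0.153).

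Tap1, the first chain of the peptide transporter (chromosome 17, 34187553 to 34197225), had 4.98, 5.03 and 5.57 CPM with K+ ICN, 4.76, 5.66 and 3.96 CPM with Na+ ICN, and 3.37, 2.91 and 3.15 CPM with PA. Every ICN library lay above every PA library. Tap1 rose 1.65-fold with K+ ICN (log2 0.72, SE 0.199, edgeR adjusted p = 0.00778) and 1.52-fold with Na+ ICN (log2 0.60, SE 0.202, edgeR adjusted p = 0.0437). The Na+ call was lost in 10 of 17 alternatives, with adjusted p of 0.0521 to 0.228, among them those without PA replicate 1, 2 or 3 and without Na+ ICN replicate 1 or 2. Its partner Tap2 had 0.872 to 1.31 CPM with K+ ICN, 0.881 to 1.96 CPM with Na+ ICN and 0.358 to 0.918 CPM with PA, and did not pass (log2 0.69, SE 0.462 with K+, log2 1.08, SE 0.457 with Na+). Tapbp, or tapasin, which tethers heavy chains to the transporter, had 13.9 to 15.2 CPM with K+ ICN, 12.9 to 16.4 CPM with Na+ ICN and 10.7 to 14.2 CPM with PA, with a fold change of 1.16 in both comparisons and an interval of 0.982 to 1.36 with K+ ICN.

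The immunoproteasome subunits, which replace the constitutive catalytic subunits under interferon, did not pass in any comparison. Psmb10 had 7.86 to 11.7 CPM with K+ ICN, 9.25 to 10.3 CPM with Na+ ICN and 9.30 to 9.58 CPM with PA, and its fold change was 1.01 with K+ ICN (interval 0.832 to 1.23) and 1.05 with Na+ ICN (interval 0.864 to 1.28). Psmb8 had 0.376 to 0.581 CPM with K+ ICN, 0.109 to 0.617 CPM with Na+ ICN and 0.350 to 0.562 CPM with PA. Psmb9, which shares a promoter region with Tap1 on the opposite strand, had 6, 5 and 13 counts with K+ ICN, 7, 16 and 7 with Na+ ICN and 2, 2 and 4 with PA. Its ICN counts lay above its PA counts in all libraries, but they were too few for the test. Psmb9 and Tap1 overlap by 212 exon bases, and the strand setting of the counting is not given in the sources used here. Per kilobase of transcript, the 3 immunoproteasome subunits together had a level of 7.64 ± 1.49 CPM with K+ ICN, 7.92 ± 0.587 CPM with Na+ ICN and 7.48 ± 0.0758 CPM with PA (SD, n = 3 each). Most of this was Psmb10, with means of 7.272, 7.575 and 7.202 CPM per kilobase in the same order. The sum therefore says little about Psmb8 and Psmb9. On the same scale the constitutive subunits Psmb5, Psmb6 and Psmb7 had 253 ± 9.32 CPM with K+ ICN, 241 ± 8.13 CPM with Na+ ICN and 252 ± 13.4 CPM with PA. None of Psmb5, Psmb6 and Psmb7 was called, with edgeR adjusted p from 0.119 to 0.883 against PA, although Psmb5 passed as lower with Na+ ICN when no low-count filter was used (0.0332).

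Nlrc5, the transactivator that drives class I heavy chains, B2m and Tap1 in mouse lymphoid cells (chromosome 8, 94434356 to 94527272), had 0.408, 1.32 and 1.02 CPM with K+ ICN, 0.766, 0.392 and 0.147 CPM with Na+ ICN, and 0.153, 0.269 and 0.175 CPM with PA. All K+ libraries lay above all PA libraries, and the Na+ libraries overlapped both. It rose 4.51-fold with K+ ICN, with a wide interval of 1.81 to 11.3 (edgeR adjusted p = 0.0163), and did not pass with Na+ ICN (2.14-fold, interval 0.784 to 5.84, edgeR adjusted p = 0.379). The K+ call rests on 9 to 28 counts per K+ library and was lost without K+ ICN replicate 2 (edgeR adjusted p = 0.128), K+ ICN replicate 3 (0.0631), PA replicate 1 (0.08) or PA replicate 3 (0.0715).

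Irf1, an early interferon-induced activator of class I promoters (chromosome 11, 53770014 to 53778374), had 2.54, 2.07 and 1.94 CPM with K+ ICN, 2.41, 2.24 and 2.01 CPM with Na+ ICN, and 1.12, 0.968 and 1.40 CPM with PA. The ICN groups overlapped each other and lay above PA. With K+ ICN Irf1 rose 1.86-fold (log2 0.89, SE 0.314, edgeR adjusted p = 0.0433), and with Na+ ICN it was 1.89-fold the PA level but did not pass (log2 0.92, SE 0.317, edgeR adjusted p = 0.0525). The K+ call was lost in 10 of 17 alternatives (adjusted p 0.0504 to 0.175), including those without any 1 of the K+ ICN or PA libraries.

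Stat2 and Irf9, which carry type I interferon signals to DNA, did not pass in any comparison. Stat2 had 24.98 to 32.3 CPM with K+ ICN, 30.6 to 32.2 CPM with Na+ ICN and 24.6 to 28.6 CPM with PA, with a fold change of 1.17 with Na+ ICN (interval 1.04 to 1.32, edgeR adjusted p = 0.0805). Irf9 had 8.82 to 10.5 CPM with K+ ICN, 9.25 to 9.47 CPM with Na+ ICN and 9.44 to 10.8 CPM with PA. Irf7, the regulator that amplifies type I interferon production, had 0 or 1 counts in every library.

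**Figure D3:**
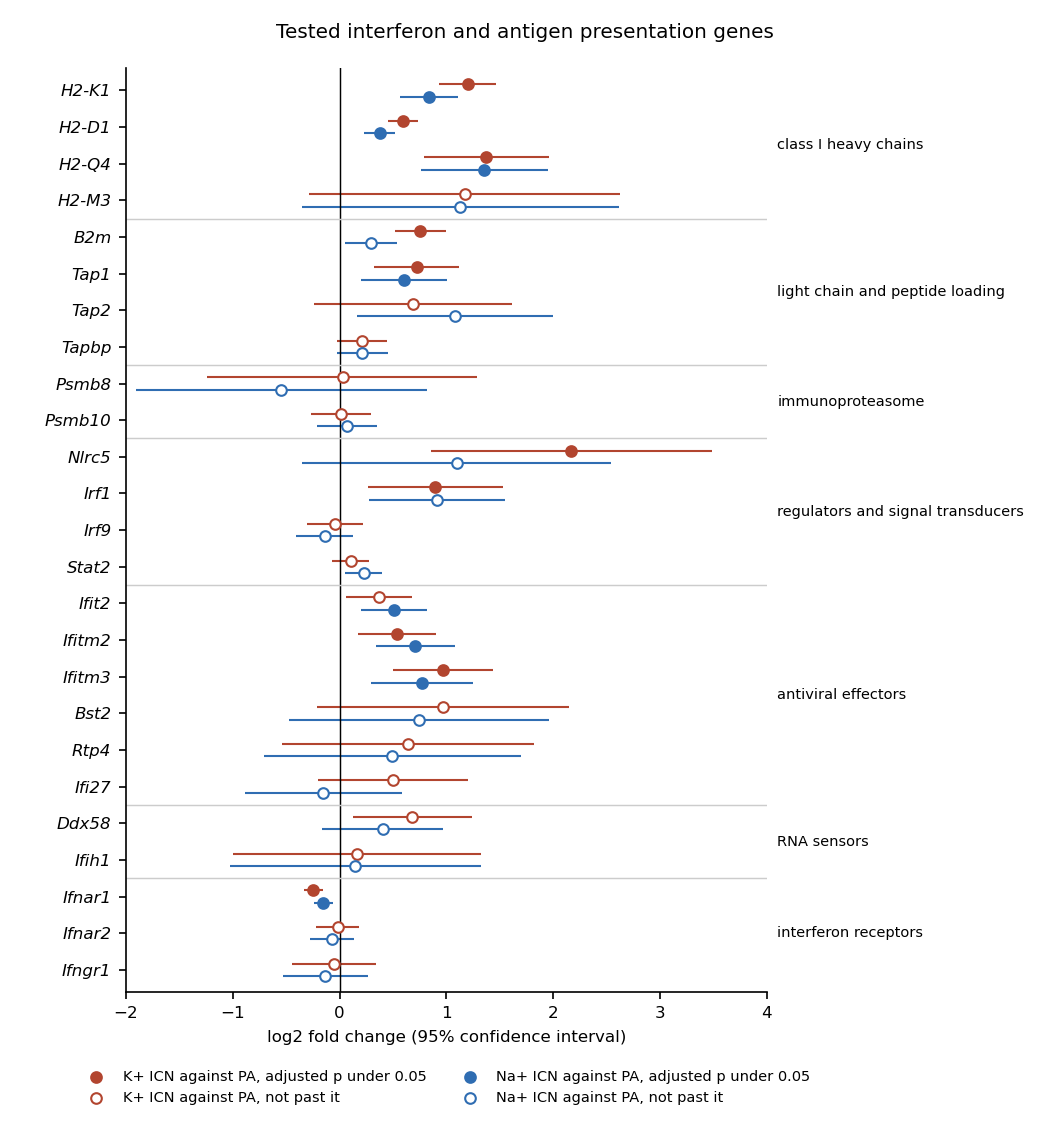
log2 fold change with its 95% confidence interval for the 25 tested members, with K+ ICN against PA (red, upper mark) and Na+ ICN against PA (blue, lower mark), grouped by role. Filled marks have an edgeR adjusted p under 0.05, which 3 of 4 tested heavy chains reached in both comparisons and no immunoproteasome subunit or RNA sensor reached in either.

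Among the antiviral effectors, the interferon-induced transmembrane proteins were called with both ICNs. Ifitm3, which blocks virus entry at endosomes (chromosome 7, 141009586 to 141010770), had 5.53, 4.05 and 4.41 CPM with K+ ICN, 4.71, 3.76 and 3.72 CPM with Na+ ICN, and 2.66, 3.07 and 1.49 CPM with PA. All ICN libraries lay above all PA libraries. Ifitm3 rose 1.96-fold with K+ ICN (log2 0.97, SE 0.233, edgeR adjusted p = 0.00203) and 1.70-fold with Na+ ICN (log2 0.77, SE 0.237, edgeR adjusted p = 0.027). The Na+ call was lost without Na+ ICN replicate 1 (edgeR adjusted p = 0.123) or PA replicate 3 (0.239).

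Ifitm2, a relative of Ifitm3 on the same chromosome (140954837 to 140955987), had 6.21, 6.30 and 6.44 CPM with K+ ICN, 5.80, 7.18 and 8.27 CPM with Na+ ICN, and 3.12, 4.79 and 5.07 CPM with PA. Again the ICN groups overlapped each other and lay above PA. The fold was 1.46 with K+ ICN (log2 0.54, SE 0.182, edgeR adjusted p = 0.0343) and 1.63 with Na+ ICN (log2 0.71, SE 0.182, edgeR adjusted p = 0.00658). The K+ call was lost without PA replicate 1 (edgeR adjusted p = 0.253), without K+ ICN replicate 1, 2 or 3 (0.0668, 0.0748 and 0.0961) and with DESeq2 (0.0535), and the Na+ call without Na+ ICN replicate 3 (0.0685) or PA replicate 1 (0.0884). Of the 50-base stretches of Ifitm2, 48.5% also occur in another gene, 36.1% in Gm45717, which overlaps it on the same strand, so its counts are uncertain. For Ifitm3, 10.02% of the stretches also occur in another gene.

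Ifit2, an antiviral protein that binds RNA in complexes with Ifit1 and Ifit3 (chromosome 19, 34550694 to 34576419), was the 1 member of its gene family with counts enough to test. It had 9.20, 8.14 and 7.94 CPM with K+ ICN, 8.26, 10.1 and 9.49 CPM with Na+ ICN, and 6.54, 7.85 and 5.25 CPM with PA. Every ICN library was above the highest PA library. Ifit2 rose 1.42-fold with Na+ ICN (log2 0.51, SE 0.154, edgeR adjusted p = 0.0239) and was 1.29-fold the PA level with K+ ICN without passing (log2 0.37, SE 0.154, edgeR adjusted p = 0.0955). The Na+ call was lost without Na+ ICN replicate 2 (edgeR adjusted p = 0.116), Na+ ICN replicate 3 (0.0707), PA replicate 1 (0.0674) or PA replicate 3 (0.204). Its neighbours on the chromosome stayed near 0, with 3, 4 and 2 counts of Ifit1 with K+ ICN, 0 in all Na+ ICN libraries and 0, 0 and 2 with PA. Ifit3 had 0 to 7 counts with K+ ICN, 0 to 10 with Na+ ICN and 1 to 5 with PA, and 51.2% of its stretches also occur in Ifit3b.

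The other tested effectors did not pass. Bst2, or tetherin, which holds budding virus at the membrane, had 0.484 to 0.941 CPM with K+ ICN, 0.440 to 0.711 CPM with Na+ ICN and 0.175 to 0.511 CPM with PA. Rtp4 had 0.376 to 1.04 CPM with K+ ICN, 0.294 to 1.26 CPM with Na+ ICN and 0.219 to 0.646 CPM with PA. Ifi27 had 1.74 to 2.49 CPM with K+ ICN, 0.783 to 2.19 CPM with Na+ ICN and 1.14 to 1.84 CPM with PA. The groups of all 3 genes overlapped, and their log2 fold changes ran from 0.50 to 0.97 with K+ ICN and from -0.15 to 0.74 with Na+ ICN.

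The untested effectors showed no common order of the groups. Isg15, a ubiquitin-like modifier, had 7, 2 and 4 counts with K+ ICN, 3, 1 and 3 with Na+ ICN and 0, 0 and 6 with PA. Usp18, the protease that removes Isg15, had 2, 4 and 13 counts with K+ ICN, 0, 0 and 1 with Na+ ICN and 0, 2 and 3 with PA. Rsad2, or viperin, had its highest library in PA, with 10, 4 and 2 counts with K+ ICN, 3, 8 and 8 with Na+ ICN and 4, 7 and 19 with PA. Oasl2 had 2 to 5 counts with K+ ICN, 4 to 10 with Na+ ICN and 3 to 6 with PA, and Xaf1 had 0 to 4 with K+ ICN, 0 to 9 with Na+ ICN and 0 to 5 with PA. When all 10 untested members were fitted without a low-count filter, none of the 30 values was called by edgeR (smallest adjusted p = 0.184).

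**Figure D4:**
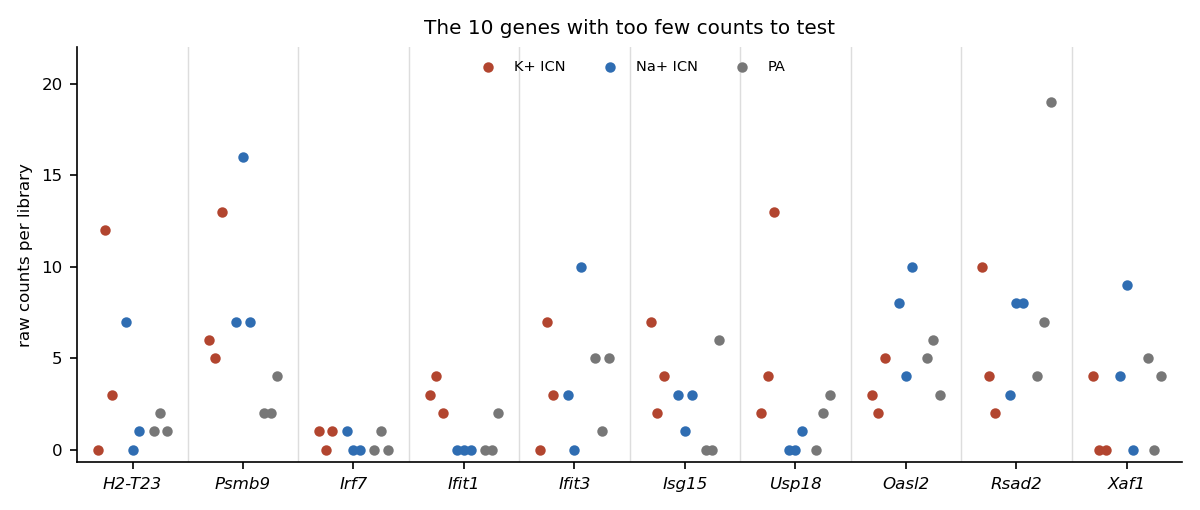
Raw counts in each library of the 10 members below the count minimum, for K+ ICN (left), Na+ ICN (middle) and PA (right) within each gene. Counts ran from 0 to 19 among library totals of at least 17924988.

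The RNA sensors Ddx58, which encodes RIG-I, and Ifih1, which encodes MDA5, did not pass. Ddx58 had 2.67, 2.78 and 3.25 CPM with K+ ICN, 1.81, 2.92 and 2.45 CPM with Na+ ICN, and 1.48, 1.67 and 2.23 CPM with PA. Its K+ libraries lay above its PA libraries (1.60-fold, interval 1.09 to 2.36, edgeR adjusted p = 0.0868), and its Na+ libraries overlapped both. Ifih1 stayed between 0.274 and 0.832 CPM in all 9 libraries.

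Of the interferon receptor chains, Ifnar1 was called with both ICNs and in the opposite direction to the other called members. Ifnar1, which with Ifnar2 forms the receptor for type I interferons (chromosome 16, 91485238 to 91507441), had 91.2, 92.6 and 86.0 CPM with K+ ICN, 96.4, 92.7 and 98.6 CPM with Na+ ICN, and 107, 104 and 108 CPM with PA. No library of either ICN reached the lowest PA library. Ifnar1 fell to 0.844 of PA with K+ ICN (log2 -0.25, SE 0.045, edgeR adjusted p = 5.61e-05) and to 0.900 of PA with Na+ ICN (log2 -0.15, SE 0.045, edgeR adjusted p = 0.02). The Na+ call was lost with upper-quartile scaling (edgeR adjusted p = 0.0506) and without Na+ ICN replicate 2 (0.118), PA replicate 1 (0.0656) or PA replicate 3 (0.0991). Ifnar2 had 15.1 to 18.03 CPM with K+ ICN, 15.6 to 15.8 CPM with Na+ ICN and 15.8 to 17.6 CPM with PA, with fold changes of 0.987 (interval 0.856 to 1.14) and 0.951 (interval 0.823 to 1.10). Ifngr1, a chain of the interferon gamma receptor, had 4.35 to 4.94 CPM with K+ ICN, 3.67 to 5.72 CPM with Na+ ICN and 4.14 to 5.42 CPM with PA, and did not pass.

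Levels of different genes were compared per kilobase of the longest GENCODE transcript. On that scale the highest members with K+ ICN were H2-D1 (23.1 ± 0.578 CPM per kilobase), Ifnar1 (23.01 ± 0.882) and B2m (19.8 ± 3.08) (SD, n = 3 for each value), and H2-D1 and Ifnar1 did not differ beyond their spread. With Na+ ICN they were Ifnar1 (24.5 ± 0.763), H2-D1 (19.8 ± 0.757) and B2m (14.4 ± 0.459), and with PA Ifnar1 (27.3 ± 0.544), H2-D1 (15.3 ± 1.44) and B2m (11.7 ± 0.367). Ifnar1 thus stood above H2-D1 by more than their spread with Na+ ICN and PA but not with K+ ICN. This spread is that among libraries only. It leaves out the error from scaling by the longest transcript and from reads shared with other genes. The order of different genes is therefore uncertain. H2-K1 had 7.89 ± 0.285 with K+ ICN, 6.14 ± 0.477 with Na+ ICN and 3.42 ± 0.569 with PA. The PA levels of H2-K1 and Ifitm3 (3.55 ± 1.21) did not differ beyond their spread.

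Related genes outside the 35 were read from the same fit. Counts for the lists below, cell type markers included, are to be read against the shares of all tested genes called. These were 8.15% higher and 7.68% lower with K+ ICN, 5.63% higher and 5.22% lower with Na+ ICN, and 6.58% between the ions. A list with a count near these shares is not set apart by it. Of 16 interferon ligand genes, 15 had 0 counts in all 9 libraries, and Ifng had 5 counts in K+ ICN replicate 3 and 0 in the other libraries. In the interferon signal chain, 20 of 22 genes were tested. With K+ ICN 1 was higher and 2 were lower, and with Na+ ICN 1 was higher and 2 were lower. Stat3, a transducer of interleukin-6 family signals, was the gene higher with K+ ICN, at 64.9, 76.6 and 69.1 CPM with K+ ICN, 58.9, 56.3 and 57.4 CPM with Na+ ICN and 52.6, 60.3 and 54.7 CPM with PA (log2 0.33 against PA, SE 0.061, edgeR adjusted p = 6.26e-05). The 4 other genes called, Jak1, Jak2, Socs2 and Ptpn1, had log2 fold changes between -0.25 and 0.15. Each of these calls was lost on leaving out 1 library: Jak1 with K+ ICN in 6 of 17 alternatives (adjusted p 0.0507 to 0.118; any K+ ICN library, PA replicate 1 or 2) and with Na+ ICN in 3 (0.0598 to 0.0737; Na+ ICN replicate 2, PA replicate 1 or 2). The Ptpn1 call with Na+ ICN was lost in 3 (0.0523 to 0.157; Na+ ICN replicate 2, PA replicate 3), the Socs2 call with K+ ICN in 2 (0.0758 to 0.0865; K+ ICN replicate 1, PA replicate 3) and the Jak2 call with Na+ ICN in 1 (0.0556; PA replicate 2). Stat3 was also higher with K+ ICN than with Na+ ICN (log2 0.29, SE 0.061, edgeR adjusted p = 0.00104).

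Of 51 listed further type I interferon targets, 50 were found and 21 tested. With K+ ICN 1 rose, the membrane protein Ly6e (log2 0.33, SE 0.077, edgeR adjusted p = 0.00155), and with Na+ ICN 1 rose, the mitochondrial nucleotide kinase Cmpk2 (log2 0.34, SE 0.115, edgeR adjusted p = 0.0447). The Cmpk2 call was lost in 8 of 17 alternatives, with its adjusted p reaching 0.281 without Na+ ICN replicate 3. Cmpk2 was the 1 gene of that list called between the ions, and was lower with K+ ICN than with Na+ ICN (log2 -0.37, edgeR adjusted p = 0.0404). That call was lost without any 1 of the K+ ICN libraries or without Na+ ICN replicate 3 (edgeR adjusted p 0.0647 to 0.286). Of 23 interferon gamma induced GTPases and chemokines 9 were tested, and the guanylate-binding protein Gbp2 rose with K+ ICN (log2 1.96, SE 0.685, edgeR adjusted p = 0.0426). Gbp2 had at most 1.13 CPM and reached the count minimum only in ICN libraries, and its call was lost in 8 of the 14 alternatives that gave a value, with its adjusted p reaching 0.266 without K+ ICN replicate 2. In the nucleic acid sensing list, with 15 of 19 tested, Eif2ak2, the kinase PKR, rose with Na+ ICN (log2 0.61, SE 0.175, edgeR adjusted p = 0.017) and no gene was called with K+ ICN. The Eif2ak2 call was lost without Na+ ICN replicate 2 (edgeR adjusted p = 0.0562), PA replicate 1 (0.0708) or PA replicate 3 (0.113).

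The further genes of class I presentation gave a mixed picture. Of 10 peptide supply and loading genes, all tested, Psme1, a subunit of the proteasome activator PA28, rose with K+ ICN (log2 0.30, SE 0.068, edgeR adjusted p = 0.000997) and with Na+ ICN (log2 0.22, SE 0.068, edgeR adjusted p = 0.029). Its Na+ call was lost without Na+ ICN replicate 1 or 2 or PA replicate 1 or 3 (edgeR adjusted p 0.072 to 0.147). The other called genes of that list were lower, the chaperones Calr and Pdia3 with Na+ ICN and the peptidase Npepps with K+ ICN, each with a log2 fold change of -0.11. The Calr call was lost without Na+ ICN replicate 2 or PA replicate 2 (edgeR adjusted p 0.0556 to 0.0851), the Pdia3 call in 3 of 17 alternatives (0.0504 to 0.0586), among them those without Na+ ICN replicate 2 or PA replicate 3, and the Npepps call in 5 (0.0507 to 0.109), among them those without K+ ICN replicate 1 or 2 or PA replicate 1 or 3. Of 18 other class I and class I-like genes found, 9 were tested. H2-Q6 rose with K+ ICN (log2 1.88, SE 0.622, edgeR adjusted p = 0.0302), at 0.630 to 1.08 CPM with K+ ICN against 0.0874 to 0.409 CPM with PA. It reached the count minimum only in ICN libraries, and its call was lost with no low-count filter (edgeR adjusted p = 0.0529) and without K+ ICN replicate 1 or 2 or PA replicate 2 or 3 (0.0853 to 0.176). H2-Ke6, which was listed with them and called in both comparisons (log2 0.33 with K+ ICN, lost in 3 of 17 alternatives at adjusted p of 0.0796 to 0.139, and 0.31 with Na+ ICN, lost in 14 at 0.0509 to 0.143), lies in the MHC region but encodes a steroid dehydrogenase and not a heavy chain. Of 8 partners of Nlrc5 at class I promoters, the CCAAT-box factor subunits Nfya (log2 0.14) and Nfyb (log2 -0.23) were called in opposite directions with K+ ICN, and none was called with Na+ ICN. The Nfya call was lost without K+ ICN replicate 3 or PA replicate 1 or 3 (edgeR adjusted p 0.057 to 0.168) and the Nfyb call without K+ ICN replicate 2 or PA replicate 2 (0.0694 to 0.108). Nfyb was also lower with K+ ICN than with Na+ ICN (log2 -0.24, edgeR adjusted p = 0.023), a call lost without K+ ICN replicate 2 or 3 or Na+ ICN replicate 1 or 3 (0.065 to 0.109). Of 9 class II presentation genes 2 were tested and neither was called, and the class II transactivator Ciita had 8, 0 and 2 counts with K+ ICN, 0, 1 and 0 with Na+ ICN and 0, 1 and 0 with PA.

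Of 19 NF-kappaB genes 14 were tested. With K+ ICN, the transcription factor Relb (log2 0.92, SE 0.25, edgeR adjusted p = 0.00718), the inhibitor Nfkbie (log2 0.68, SE 0.232, edgeR adjusted p = 0.0371) and the receptor Tnfrsf1a (log2 0.63, SE 0.159, edgeR adjusted p = 0.00356) rose. The Relb call was lost without PA replicate 3 (edgeR adjusted p = 0.0819), and the Nfkbie call with DESeq2 (0.0516) and without K+ ICN replicate 2 or 3 or PA replicate 1 or 3 (edgeR adjusted p 0.0806 to 0.197). The kinase regulator Ikbkg was lower with K+ ICN (log2 -0.21) and with Na+ ICN (log2 -0.28), and no gene of that list was higher with Na+ ICN. Its K+ call was lost in 8 of 17 alternatives (adjusted p 0.0544 to 0.136), among them those without any 1 of the K+ ICN or PA libraries, and its Na+ call without Na+ ICN replicate 3 (edgeR adjusted p = 0.0553). Relb was higher with K+ ICN than with Na+ ICN (log2 0.83, SE 0.25, edgeR adjusted p = 0.0327). That call was lost without any 1 of K+ ICN replicates 1, 2 and 3 or Na+ ICN replicates 1 and 3 (edgeR adjusted p 0.059 to 0.174). Relb had 4.26, 3.81 and 4.17 CPM with K+ ICN, 2.41, 2.75 and 1.76 CPM with Na+ ICN and 2.61, 2.42 and 1.49 CPM with PA.

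Class I genes are expressed by nearly all nucleated cells, and in brain more by non-neuronal cells than by neurons, so marker lists of other cell types were read beside them. In bulk RNA, fewer cells of a type and less RNA per cell cannot be told apart. The summed level of 13 neuron markers was 6149 to 6248 CPM with K+ ICN, 6522 to 6799 CPM with Na+ ICN and 6791 to 6876 CPM with PA. All 13 were tested against PA. With K+ ICN 4 were lower (Tubb3, Map2, Syt1 and Gad2), Slc17a7 was higher and 8 did not pass. With Na+ ICN 3 were lower (Syt1, Gad1 and Gad2) and 10 did not pass. The 12 astrocyte markers summed to 777 to 805 CPM with K+ ICN, 791 to 839 CPM with Na+ ICN and 679 to 712 CPM with PA. Of 10 tested astrocyte markers, 8 rose with K+ ICN and 6 with Na+ ICN. The 16 microglia and macrophage markers summed to 31.3 to 34.1 CPM with K+ ICN, 27.2 to 34.4 CPM with Na+ ICN and 23.8 to 26.2 CPM with PA. Of these, C1qc (log2 1.11) and Cd68 (log2 0.50) of 14 tested rose with K+ ICN (the C1qc call was lost without K+ ICN replicate 1, edgeR adjusted p = 0.0899, and the Cd68 call in 7 of 17 alternatives, 0.0523 to 0.151) and none was called with Na+ ICN, and none of the 16 was at 0 in all libraries.

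The 10 mural cell markers summed to 133 to 153 CPM with K+ ICN, 123 to 127 CPM with Na+ ICN and 81.4 to 85.6 CPM with PA, and 2 of 8 tested, the contractile genes Acta2 and Tagln, rose with both ICNs. The 12 fibroblast markers summed to 182 to 198 CPM with K+ ICN, 180 to 188 CPM with Na+ ICN and 173 to 187 CPM with PA, with 4 collagen and matrix genes of 10 tested higher in both comparisons, and Pdgfra lower in both and Postn with Na+ ICN. The 12 endothelial markers summed to 15.99 to 21.6 CPM with K+ ICN, 14.3 to 16.7 CPM with Na+ ICN and 11.9 to 16.4 CPM with PA, with Kdr (log2 0.58) higher with K+ ICN, Egfl7 (log2 1.13) higher with Na+ ICN, and Ly6c1 at 0 in all libraries. Markers of T and NK cells, which make interferon gamma, were at or near 0, with 7 of 10 at 0 in all libraries and sums of at most 5 counts in any library. The part of these cells in the class I and antiviral results was not tested.

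**Figure D5:**
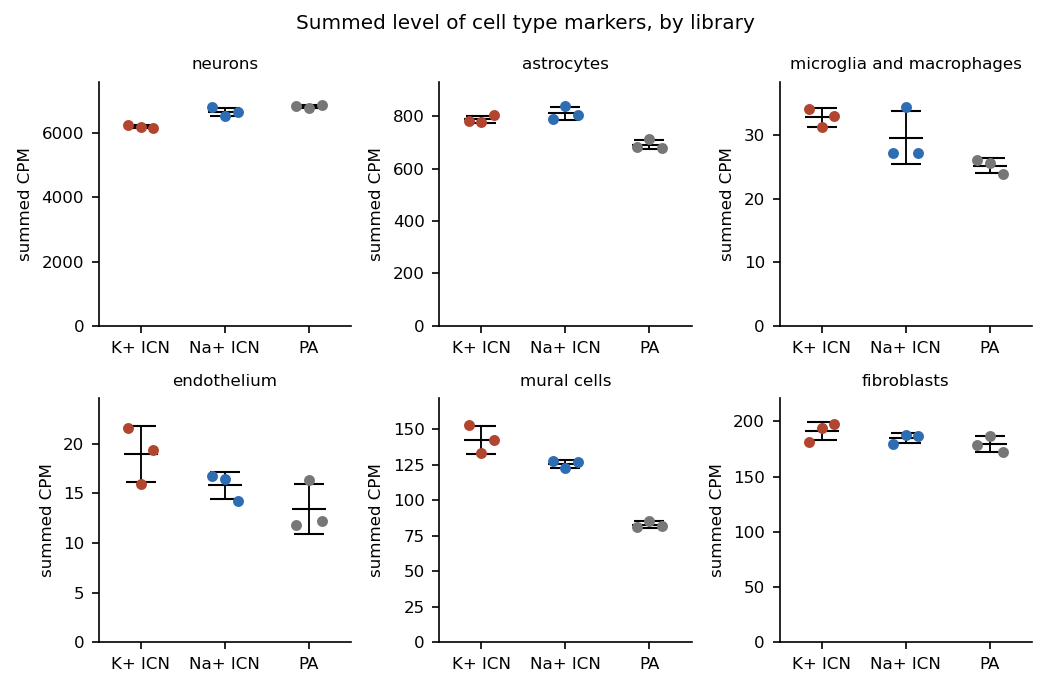
Summed CPM of 6 cell type marker lists in each library (points), with the mean and SD of 3 libraries, for K+ ICN, Na+ ICN and PA from left to right in each panel. The astrocyte, microglia and mural cell sums were higher in every ICN library than in any PA library, and the neuron sum with K+ ICN was below that of every PA library. Of the 13 neuron markers, 8 were not called with K+ ICN against PA.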

How the data were processed

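The authors deposited raw counts per gene symbol for 9 libraries (3 per group). The submitters' processing notes name GRCm38 and, without versions or order, the tools RSEM, STAR and Trim Galore. Which tool counted, with which annotation and strand setting, is not given in the sources used here. From the deposited counts, genes passing filterByExpr (count minimum 10) were kept: 15183 of 40773, with 99.93% of all counts. They were scaled by TMM and fitted in edgeR 4.0.16 (R 4.3.3, robust quasi-likelihood, all 9 libraries sharing their spread), with Benjamini-Hochberg adjustment over all genes tested and a threshold of 0.05. The procedure was tested on simulated data. Members, gene lists and tests were chosen with earlier results of these data known. Members past the threshold in any comparison are given per library, the others by range. From each other list, up to 4 genes with the smallest p are named. Alternatives used DESeq2 1.42.0, limma 3.58.1 and other scalings and filters, and left out each library in turn. No label pairs the replicate numbers across groups. Deviations of same-numbered libraries correlated at -0.0234 to 0.0483, and those of differently numbered libraries at -0.0366 to 0.0395. These ranges do not exclude a weak pairing. Shared stretches came from GENCODE vM21 transcripts and promoters from RefSeq.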

Additional observations from a re-analysis of the deposited data

How the results depend on the processing

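Against 17 alternatives, the calls of H2-K1, H2-D1 and H2-Q4 against PA with both ICNs, those of B2m, Tap1, Ifitm3 and Ifnar1 with K+ ICN, and all 3 calls of the class I sum remained. The cause was not tested for any change below. Members called with Na+ ICN numbered 4 to 8 and genes 1079 to 1611 when 1 library was left out. The low counts were 4 without PA replicate 1, 4 and 1079 without PA replicate 3, and 5 and 1089 without Na+ ICN replicate 2. With K+ ICN, members called numbered 7 to 10 and genes 1778 to 2480 on leaving out 1 library. The lowest member count, 7, came without K+ ICN replicate 2, K+ ICN replicate 3 or PA replicate 1, and the lowest gene count without PA replicate 3. Between the ions, members called numbered 0 to 2 on leaving out 1 library, 0 of them without K+ ICN replicate 2. They numbered 2 with DESeq2 size factors, the DESeq2 test, no filter, a filter of 1 CPM in 3 libraries or the replicate block, and 3 with limma voom or only the 6 libraries compared. The replicate block, on numbers that no label pairs across groups, called 1825 genes with Na+ ICN, 2612 with K+ ICN and 1165 between the ions, against 1648, 2403 and 999 without it, and 8 and 10 members against PA in either case. Upper-quartile scaling put 65.4% of called genes higher with Na+ ICN and 61.5% with K+ ICN, against 51.9% and 51.5% with TMM. Nlrc5 against PA had no value with DESeq2 (no adjusted p), the 1 CPM filter or only the 6 libraries, where it was not tested. Of 1765 alternative values of genes not called, 60 had another sign. The 10 members below 20 counts per library leave their differences undetectable at this depth, and a p that misses the threshold does not show equal levels.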
